A study of Arabidopsis thaliana with 46 samples.

Results

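ATG8 is the small ubiquitin-like protein that coats the autophagosome, and Arabidopsis thaliana makes it from a family of related genes. The ATG8 transcripts described here are the probe sets whose single annotated gene name starts with ATG8 or APG8, and the rule used no measured value. It found 9 probe sets among the 13513 with 1 gene name, each for a different gene, and none of the probe sets with several gene names held a family member. On the TAIR10.1 assembly the genes are ATG8C (AT1G62040, chromosome 1, 22932760 to 22934549), ATG8D (AT2G05630, chromosome 2, 2082894 to 2084905), ATG8E (AT2G45170, chromosome 2, 18624264 to 18625791) and ATG8H (AT3G06420, chromosome 3, 1954990 to 1956397). The others are APG8H (AT3G15580, chromosome 3, 5273526 to 5275095), ATG8G (AT3G60640, chromosome 3, 22415751 to 22417548), ATG8B (AT4G04620, chromosome 4, 2328442 to 2330590), ATG8F (AT4G16520, chromosome 4, 9306339 to 9308538) and APG8A (AT4G21980, chromosome 4, 11655562 to 11657034). RefSeq gives APG8A the synonym ATG8A and APG8H the synonym ATG8I.

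Autophagy carries parts of the cell to the vacuole for breakdown, and plants use it when carbon or nitrogen runs short. The protease ATG4 trims the end of newly made ATG8, ATG7 and ATG3 activate and pass it on, and a complex of ATG12, ATG5 and ATG16 helps join it to a membrane lipid. Lipid-bound ATG8 then lets the membrane grow and docks the receptors that bring cargo. The plant proteins fall into 1 clade with ATG8A to ATG8D, a further clade with ATG8E to ATG8G, and a last one with ATG8H and ATG8I, whose proteins already end in the glycine that is joined to the lipid.

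Transcripts were measured in shoots of seedlings on 46 Affymetrix arrays, 1 per sample, in 16 groups of which 14 had 3 arrays and 2 had 2. The genotypes were 3 lines named SALK_016954, SALK_136009 and SALK_070989, which carry insertions and which the study's design calls mutants of the transcription factor gene WRKY1, and their wild type Col-0. Seedlings were 14 days old and had grown on plates with 16 h of light and 8 h of night at 22 °C, under 50 µmol of photons per square metre and second. In the steady experiment all 4 genotypes stayed on full medium. In the light experiment, SALK_070989 and Col-0 either spent the last day before harvest under foil and were harvested in darkness (dark) or went through the usual day and night (light). In the nitrogen experiment both genotypes grew on 1 mM KNO3 and were moved for 2 h to 20 mM KNO3 plus 20 mM NH4NO3 (N-rich) or to 20 mM KCl without nitrogen (N-absent). In the combined experiment both genotypes were dark and either N-rich or N-absent, for which no medium or timing is given in the sources used here. The 2 groups with 2 arrays were Col-0 dark N-rich and Col-0 dark N-absent. Each insertion line was a single line, and no label says whether replicates were grown apart, so the p-values describe the spread of these samples, which may be technical.

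The values are the authors' GCRMA values on a log2 scale, from 2.23 to 14.63 over all arrays, and a value is a level of 1 probe set that is not set against another probe set's here. Array medians lay between 4.28 and 4.67. WRKY1 (AT2G04880) read 2.23 to 2.31 in SALK_016954, 3.93 to 4.45 in SALK_136009 and 2.23 to 3.26 in SALK_070989, against 6.57 to 7.84 on the 19 Col-0 arrays. The shoot label was checked with RCA, the activator of Rubisco and the only 1 of 7 shoot markers with a named probe set: its group means were 13.93 to 14.02 in the lit groups and 11.02 to 11.59 in the dark groups. The root genes EXPA7 and EXPA18, 2 of 9 root markers with a named probe set, had group means of at most 3.07, below the filter. SALK_070989 steady replicate 3 stood apart, with the lowest ATG8D value of all arrays. Its array median of 4.35 was the lowest outside the dark groups of the light experiment, whose medians were 4.28 to 4.32. Its GAPDH 3′ minus 5′ difference was 3.02 (median over arrays 2.16), a measure that grows as RNA breaks down. Col-0 dark N-absent replicate 1 had the next highest difference, 2.91. Calls of ATG8 transcripts that these 2 arrays enter are also given without them.

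All 9 transcripts passed the filter (highest group mean above 4), as they did at 6, and the lowest value of any of them on any array was 4.17. Group means of 8 transcripts peaked in the dark groups of the light experiment, ATG8E and ATG8F peaking in SALK_070989 dark and ATG8C, ATG8D, ATG8H, APG8H, ATG8B and APG8A in Col-0 dark, while ATG8G peaked in SALK_070989 dark N-absent. The range of the 16 group means was 3.94 for ATG8E, 3.28 for ATG8B, 2.49 for ATG8F, 2.27 for ATG8D, 1.96 for ATG8C, 1.89 for ATG8H, 1.69 for APG8H, 1.68 for APG8A and 1.32 for ATG8G. The range of ATG8E was wider than that of 90.2% of the 14288 probe sets kept, and that of ATG8G wider than 29.8%. When the 16 groups were put in order of their means, most neighbours overlapped in their arrays: of 15 neighbouring pairs, 4 did not overlap for ATG8B, 3 for ATG8F, and 2 or fewer for the others.

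**Figure D1:**
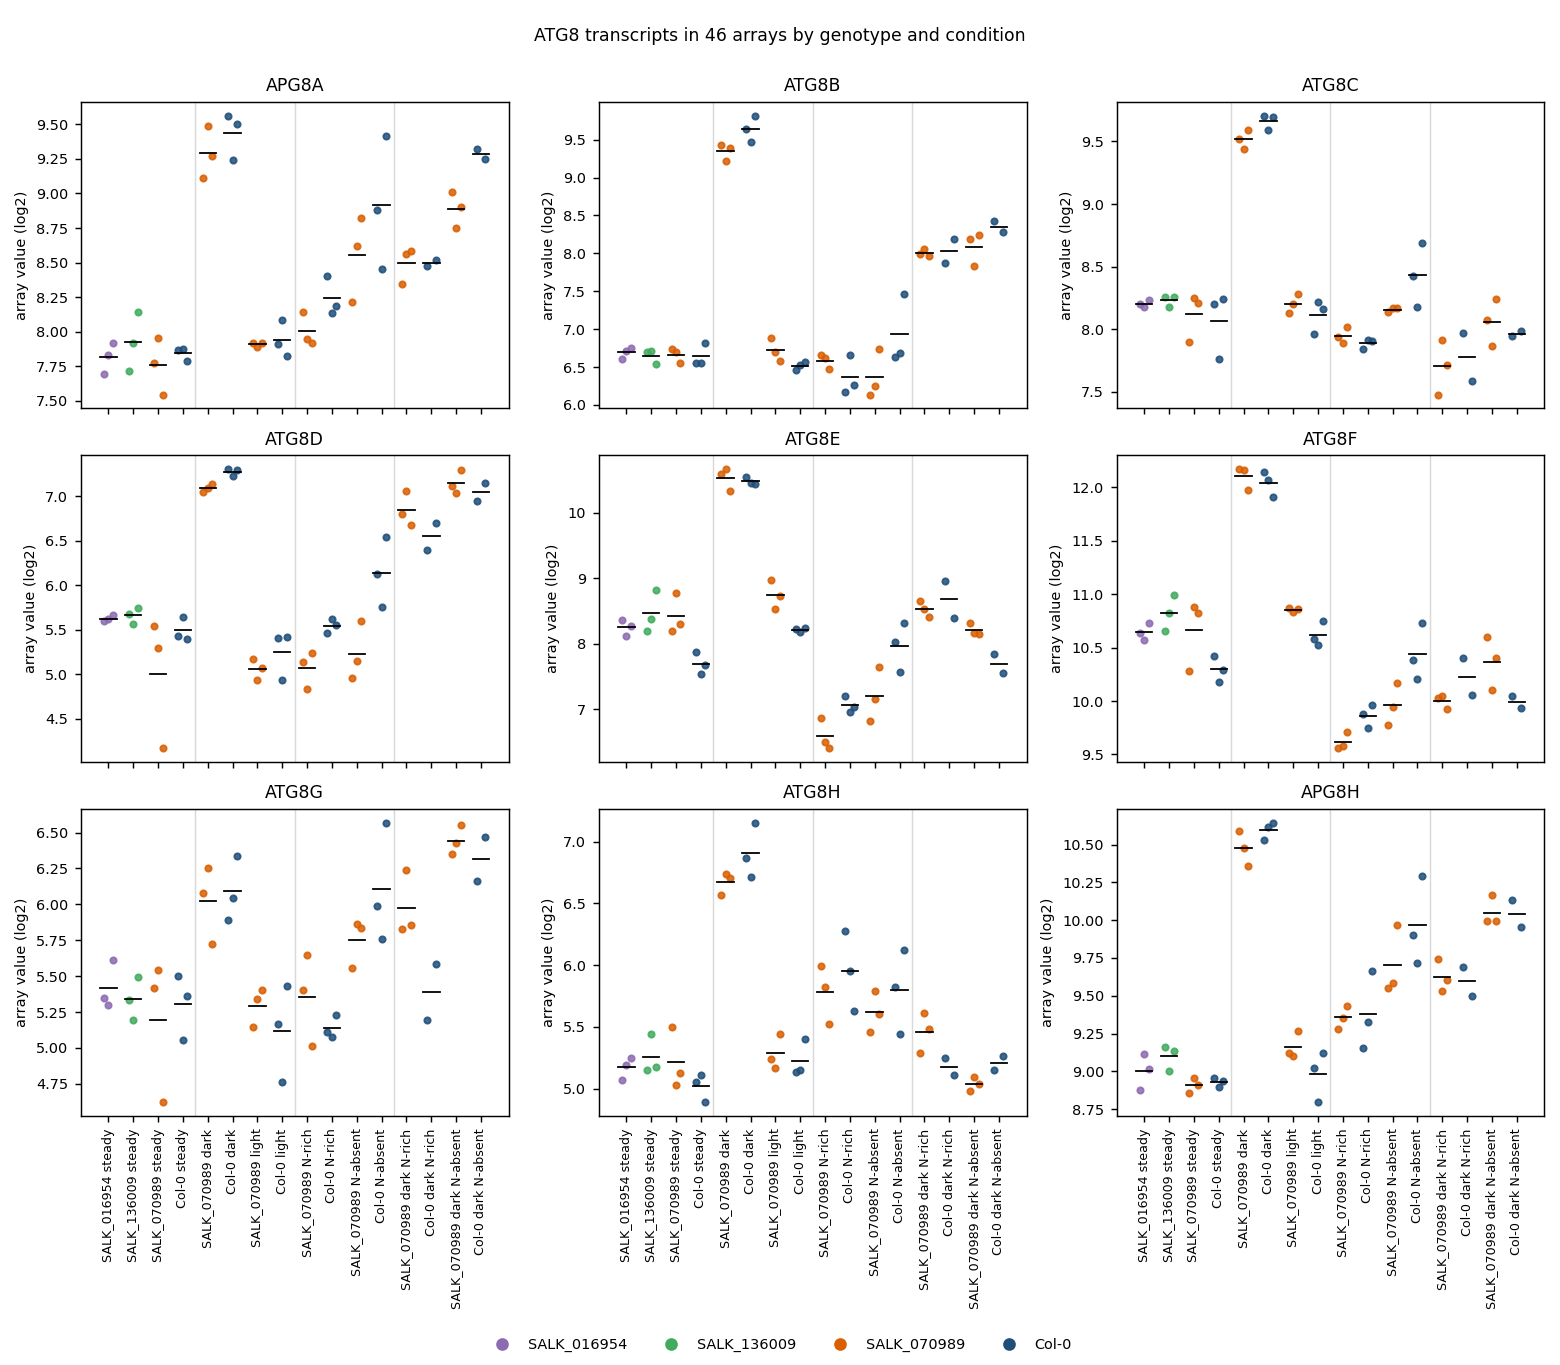
Array values (log2) of the 9 ATG8 transcripts, 1 panel each, with the 16 groups along the horizontal axis, 1 point per array and a black bar at each group mean; grey lines part the 4 experiments. A dark group of the light experiment has the highest mean in 8 of the panels, and SALK_070989 steady replicate 3 is the low ATG8D point at 4.17.

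The first question was how the family responds to a day without light. Every ATG8 transcript rose in the dark, in both genotypes. In a limma model over all 16 groups with Benjamini-Hochberg adjustment, 9 of 9 were called higher (adjusted p under 0.05) in SALK_070989 and 9 of 9 in Col-0, where 37.5% and 38.1% of all probe sets tested were called higher. The members' median difference was 1.38 in SALK_070989 and 1.62 in Col-0, against medians over all kept probe sets of 0.01 and 0.00. In a bulk sample, fewer cells of a type and less RNA per cell cannot be told apart.

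Within the clade of ATG8A to ATG8D, ATG8B had the largest rise of the family. Its values were 9.43, 9.22 and 9.39 in SALK_070989 dark, against 6.88, 6.70 and 6.58 in SALK_070989 light. In Col-0 it read 9.64, 9.47 and 9.81 in the dark and 6.46, 6.53 and 6.57 in the light. These are differences of 2.63 ± 0.16 (SE; 6.19-fold; adjusted p = 6e-17) in SALK_070989 and 3.12 ± 0.16 (8.71-fold; adjusted p = 3.5e-19) in Col-0 by limma, ranks 354 and 274 from the top among 14288 probe sets. ATG8D rose by 2.03 ± 0.21 in SALK_070989 and 2.02 ± 0.21 in Col-0, about 4.09-fold and 4.05-fold. ATG8C rose by 1.31 in SALK_070989 and 1.55 in Col-0, and APG8A by 1.38 and 1.50 in the same genotypes.

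In the clade of ATG8E to ATG8G the rises were uneven. ATG8E reached 10.59, 10.66 and 10.33 in SALK_070989 dark, against 8.97, 8.53 and 8.73 in SALK_070989 light. It reached 10.55, 10.46 and 10.44 in Col-0 dark, against 8.22, 8.18 and 8.24 in Col-0 light. The difference was 1.78 ± 0.19 (3.44-fold) in SALK_070989 and 2.27 ± 0.19 (4.82-fold) in Col-0. The dark levels of the genotypes lay close together. Light levels were higher in SALK_070989 without overlap, where 13.3% of all probe sets tested were, and their difference was not called. ATG8F rose by 1.25 in SALK_070989 and 1.43 in Col-0. ATG8G had the smallest rise, 0.73 ± 0.21 (adjusted p = 0.0019 by limma) in SALK_070989 and 0.97 ± 0.21 (adjusted p = 6.8e-05) in Col-0. The remaining clade rose by 1.38 (ATG8H) and 1.32 (APG8H) in SALK_070989, and by 1.68 and 1.62 in Col-0.

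Dark and light arrays did not overlap for any of the 9 transcripts in either genotype, where 39.7% of all probe sets tested in SALK_070989 and 40.3% in Col-0 were higher without overlap. For single genes an exact two-sided permutation test of 3 against 3 arrays gave 0.1, the smallest p it allows. All 18 of these calls held in every alternative and with each array left out. The difference of the dark response between genotypes (SALK_070989 minus Col-0) was negative for 8 transcripts, down to -0.49 for ATG8B and ATG8E, and 0.01 for ATG8D. None was called by limma, 1 had an unadjusted p under 0.05, and 2.22% of all probe sets were called. The 95% interval was -0.95 to -0.03 for ATG8B and -1.02 to 0.04 for ATG8E, adjusted p = 0.31 and 0.41 by limma.

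Nitrogen supply was the next question. After 2 h with nitrogen in the light, the family was lower than after 2 h without it, in SALK_070989 for 3 of 9 transcripts and in Col-0 for 8 of 9. Of all probe sets tested, 9.68% were called lower in SALK_070989 and 14.2% in Col-0. The members' median difference (N-rich minus N-absent) was -0.34 in SALK_070989 and -0.59 in Col-0, against -0.03 and -0.04 over all kept probe sets. ATG8H was the transcript not called in Col-0, at 0.16 ± 0.15 in SALK_070989 and 0.16 ± 0.15 in Col-0.

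In SALK_070989 the transcripts called were ATG8E, APG8A and APG8H. ATG8E read 6.86, 6.50 and 6.40 in SALK_070989 N-rich, against 6.82, 7.16 and 7.64 in SALK_070989 N-absent, a difference of -0.62 ± 0.19 (adjusted p = 0.015 by limma) with 1 array overlapping. APG8A read 8.14, 7.95 and 7.92 in SALK_070989 N-rich, against 8.21, 8.62 and 8.82 in SALK_070989 N-absent (-0.55 ± 0.16, adjusted p = 0.012). APG8H stood at -0.34 ± 0.12 (adjusted p = 0.048), close to the threshold. ATG8F at -0.34, ATG8G at -0.40, ATG8C at -0.21, ATG8D at -0.16 and ATG8B at 0.21 were not called.

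ATG8G and ATG8E had the largest differences in Col-0. ATG8G read 5.11, 5.08 and 5.23 in Col-0 N-rich, against 5.99, 5.76 and 6.57 in Col-0 N-absent, a difference of -0.96 ± 0.21 (1.95-fold lower; adjusted p = 0.00056 by limma). ATG8E read 7.19, 6.96 and 7.04 in Col-0 N-rich, against 8.03, 7.56 and 8.31 in Col-0 N-absent, a difference of -0.91 ± 0.19 (1.87-fold lower; adjusted p = 0.00035 by limma). The N-absent arrays spread far more than the N-rich arrays for both. APG8A was lower by 1.60-fold (-0.68), APG8H by 1.51-fold (-0.59), ATG8F by 1.49-fold (-0.58), ATG8C by 1.46-fold (-0.54), ATG8D by 1.51-fold (-0.60) and ATG8B by 1.48-fold (-0.57). Arrays of the 2 Col-0 groups did not overlap for 7 of these 8, the exception being ATG8B, where 19.2% of all probe sets tested were lower without overlap. The difference of the response between genotypes (SALK_070989 minus Col-0) was positive for all 9 transcripts, from 0.01 for ATG8H to 0.78 for ATG8B (95% interval 0.32 to 1.23, adjusted p = 0.14 by limma). None of the 9 was called, 1 had an unadjusted p under 0.05, and 0.182% of all probe sets were called.

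**Figure D2:**
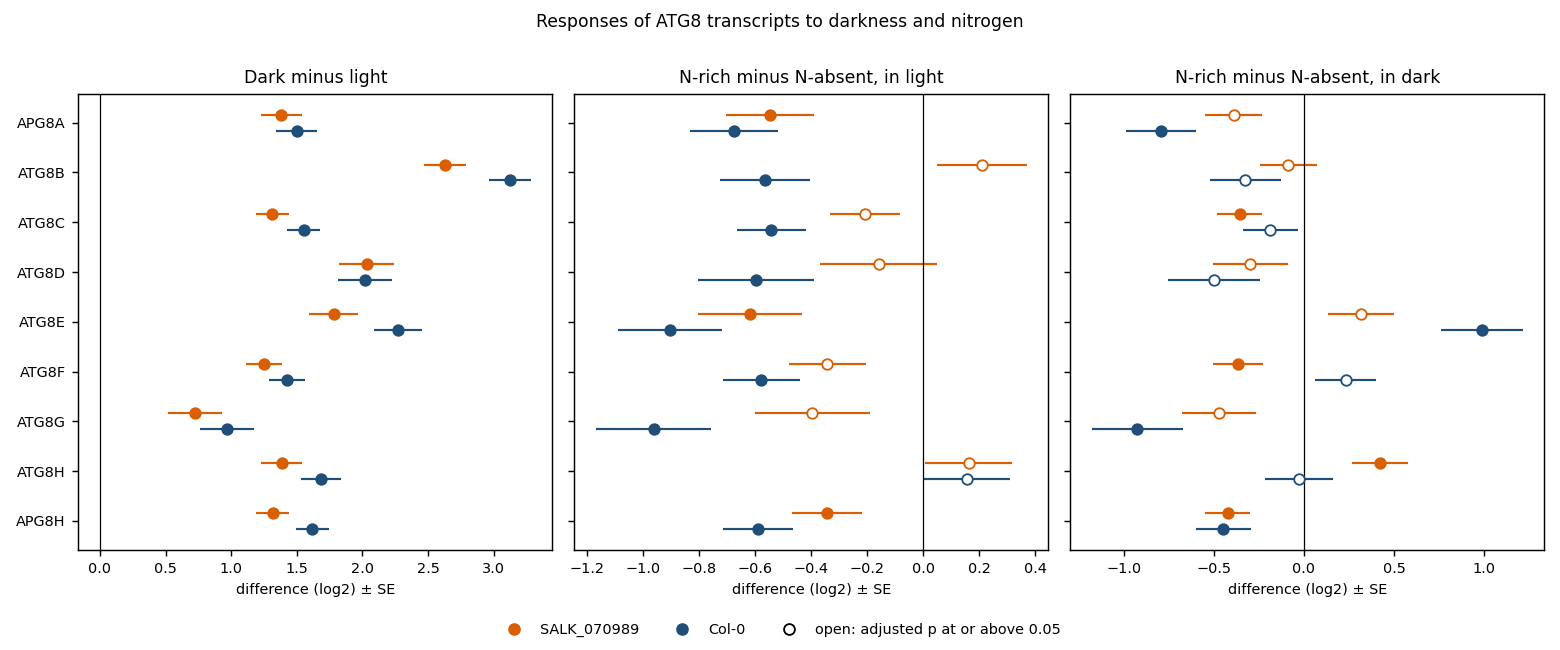
Differences (log2, ± SE) of the 9 ATG8 transcripts for dark minus light, N-rich minus N-absent in the light, and N-rich minus N-absent in the dark, orange for SALK_070989 and blue for Col-0, filled where the adjusted p is below 0.05. All 18 points of the left panel lie above 0, from 0.73 to 3.12, while ATG8E lies below 0 in the middle panel and above 0 in the right one.

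Some of these nitrogen calls rest on single arrays. In SALK_070989, 0 of 9 were called without N-absent replicate 3 (ATG8E at -0.40, APG8H at -0.21, APG8A at -0.41) or without N-rich replicate 3 (ATG8E at -0.53, APG8H at -0.38, APG8A at -0.51). Without SALK_070989 N-rich replicate 2, ATG8E was at -0.58 and APG8H at -0.34, and without N-rich replicate 1 APG8H was at -0.31, none of them called. In Col-0, without Col-0 N-absent replicate 3, ATG8D was at -0.40 and ATG8B at -0.30 and neither was called, which left 6 of 9 in Col-0. APG8A, ATG8B and ATG8D moved by over 1.5 times there, APG8A to -0.43. ATG8D was also not called when any other array of these groups but Col-0 N-absent replicate 2 was left out: it stood at -0.61 without N-absent replicate 1, and at -0.56, -0.63 and -0.60 without N-rich replicates 1, 2 and 3. ATG8B stood at -0.47 and was not called without Col-0 N-rich replicate 1. With the spread estimated from only the groups compared, 0 were called in SALK_070989 and 2 in Col-0, ATG8E and ATG8G.

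The same nitrogen contrast in the dark gave calls in both directions within the family. In each genotype 1 of 9 was called higher, near the share over all probe sets given below. With nitrogen in SALK_070989 dark, ATG8C, ATG8F and APG8H were lower and ATG8H was higher, where 15.0% of all probe sets were called lower and 13.6% higher. In Col-0 dark, APG8A, ATG8G and APG8H were lower and ATG8E was higher, where 9.6% were called lower and 10.6% higher. The Col-0 groups held 2 arrays each, for which the smallest exact permutation p is 0.333. APG8H is the transcript called lower in all 4 nitrogen contrasts, at -0.42 ± 0.12 in SALK_070989 dark and -0.45 ± 0.15 in Col-0 dark.

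ATG8E had the opposite sign to its response in the light. It read 8.64, 8.52 and 8.41 in SALK_070989 dark N-rich, against 8.31, 8.17 and 8.15 in SALK_070989 dark N-absent, without overlap but not called (0.32 ± 0.19, adjusted p = 0.21). The values were 8.96 and 8.40 in Col-0 dark N-rich, against 7.83 and 7.55 in Col-0 dark N-absent, a difference of 0.99 ± 0.23 (1.98-fold higher; adjusted p = 0.0015 by limma). Both genotypes thus had the higher ATG8E arrays on the nitrogen side in the dark and, on average, on the side without nitrogen in the light. ATG8G had the same sign as in the light. In SALK_070989 its difference of -0.47 was not called, nor was that of APG8A, -0.39. With quantile normalization on top (-0.50 for ATG8G, -0.42 for APG8A) and with the spread from only the groups compared, both were called in SALK_070989, and in the fit to only the groups compared ATG8C and ATG8F were not. It read 5.20 and 5.58 in Col-0 dark N-rich, against 6.17 and 6.47 in Col-0 dark N-absent (-0.92 ± 0.25, adjusted p = 0.007 by limma).

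The change of the nitrogen response between dark and light was tested directly. For ATG8E it was 0.93 ± 0.26 in SALK_070989 (95% interval 0.40 to 1.47, adjusted p = 0.019 by limma) and 1.89 ± 0.29 in Col-0 (adjusted p = 2.5e-05). ATG8F was called in Col-0, at 0.81 ± 0.22 (adjusted p = 0.012), and was at -0.02 in SALK_070989. No other member was called, which makes 1 of 9 in SALK_070989 and 2 of 9 in Col-0, where 8.63% and 11.5% of all probe sets were called. The dark and lit nitrogen groups came from different experiments, and darkness cannot be told apart from experiment here. The genotypes' nitrogen responses in the dark differed by -0.67 for ATG8E (95% interval -1.27 to -0.08, adjusted p = 0.15 by limma) and by -0.60 for ATG8F (adjusted p = 0.079). None of the 9 was called, 2 had an unadjusted p under 0.05, and 9.54% of all probe sets were called. Without Col-0 dark N-absent replicate 1 these differences were -0.81 for ATG8E and -0.65 for ATG8F. RCA moved in the same contrasts: with nitrogen in the dark it was at -0.11 in SALK_070989, not called, and at 0.57 in Col-0, called higher. Its difference of that response between genotypes, -0.69, and its change between dark and light in Col-0, 0.57, were called as well, and its part in the ATG8 results was not tested.

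Single arrays decided several of these calls. In SALK_070989 the counts without 1 array were 1 to 3 of 9. There ATG8F lost its call without dark N-absent replicates 1 (-0.25) or 3 (-0.35) or dark N-rich replicates 1 (-0.38), 2 (-0.39) or 3 (-0.33), so that only dark N-absent replicate 2 could be spared. ATG8H lost its call without dark N-absent replicates 1 (0.39), 2 (0.45) or 3 (0.42) or dark N-rich replicates 2 (0.34) or 3 (0.41). ATG8C lost it without dark N-absent replicates 1 (-0.35) or 3 (-0.27) or dark N-rich replicates 1 (-0.24) or 3 (-0.36), and APG8H without dark N-rich replicate 2 (-0.37). In Col-0, ATG8E lost its nitrogen call in the dark without dark N-rich replicate 1 (0.71), and without that array 2 of 9 were called. ATG8G lost it without that array (-0.73) or without dark N-absent replicate 2 (-0.77), and APG8H without dark N-rich replicate 2 (-0.35) or dark N-absent replicate 1 (-0.36). A group left with 1 array was assumed to vary like the others. With the spread from only the groups compared, 0 of 9 were called in Col-0. For the change between dark and light, ATG8E in SALK_070989 was at 0.72 without N-absent replicate 3 and 0.84 without N-rich replicate 3, and ATG8F in Col-0 was at 0.64 without dark N-rich replicate 1 and 0.76 without dark N-absent replicate 2, none of them called. Without Col-0 dark N-absent replicate 1, ATG8E in Col-0 stood at 1.13 for the nitrogen contrast and 2.03 for the change, ATG8G at -1.08 and APG8A at -0.76 for the nitrogen contrast, and ATG8F at 0.87 for the change, all called. The genotype difference of ATG8F in the dark was called without SALK_070989 dark N-absent replicate 2 (-0.73) or Col-0 dark N-rich replicate 2 (-0.77).

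In dark N-rich shoots of the combined experiment, all 9 transcripts had means below those of the light experiment's dark shoots, in both genotypes. In dark N-absent shoots most did, but ATG8G lay above, at 6.44 beside 6.02 in SALK_070989 and 6.32 beside 6.09 in Col-0. ATG8D was at 7.14 in SALK_070989 dark N-absent beside 7.09 in SALK_070989 dark. Dark N-absent was not tested against dark. In both nitrogen groups and both genotypes, ATG8C and ATG8F had means below those of the light groups, and ATG8B, ATG8D, ATG8G, APG8A and APG8H had means above them. ATG8E and ATG8H lay on either side: ATG8E averaged 8.53 in SALK_070989 dark N-rich beside 8.75 in SALK_070989 light, and 8.68 in Col-0 dark N-rich beside 8.21 in Col-0 light. ATG8F averaged 10.00 ± 0.07 in SALK_070989 dark N-rich and 12.10 ± 0.11 in SALK_070989 dark (SD, n = 3 each), beside 10.86 ± 0.02 in SALK_070989 light. ATG8B averaged 8.00 ± 0.05 in SALK_070989 dark N-rich and 9.35 ± 0.11 in SALK_070989 dark, beside 6.72 ± 0.15 in SALK_070989 light (SD, n = 3 each). The comparison of dark N-rich with dark was added after these levels had been seen.

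In that comparison 7 of 9 transcripts were called lower in SALK_070989 and 9 of 9 in Col-0, where 36.5% and 34.4% of all probe sets were called lower. ATG8F differed by -2.10 ± 0.14 in SALK_070989 and -1.81 ± 0.15 in Col-0, ATG8E by -2.00 and -1.80, ATG8C by -1.81 and -1.89, and ATG8H by -1.21 and -1.73. ATG8D, at -0.25 in SALK_070989 and -0.72 in Col-0, and ATG8G, at -0.05 and -0.70, moved least. In Col-0 both lost their call without dark N-rich replicate 1, at -0.57 for ATG8D and -0.51 for ATG8G. The dark arrays are those of the dark response above, and experiment, medium and nitrogen cannot be told apart in this comparison. RCA, which fell in the dark by 2.66 in SALK_070989 and 2.64 in Col-0, was at 11.39 in SALK_070989 dark N-rich and 11.36 in SALK_070989 dark, and at 11.59 in Col-0 dark N-rich and 11.38 in Col-0 dark. Its difference between dark N-rich and dark was not called in SALK_070989 (0.03) and was called higher in Col-0 (0.22). Its part in the ATG8 results was not tested.

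The study's title places WRKY1 in light and nitrogen signalling, so the insertion lines were set against Col-0 in each condition. On full medium ATG8E was called higher in 2 of the 3 lines, and no array of any line was as low as a Col-0 array. SALK_016954 arrays read 8.36, 8.12 and 8.27, SALK_136009 arrays 8.20, 8.37 and 8.82 and SALK_070989 arrays 8.19, 8.78 and 8.31, against 7.87, 7.53 and 7.68 on Col-0 arrays. The difference reached 0.77 ± 0.19 in SALK_136009 (1.70-fold; adjusted p = 0.0063 by limma) and 0.73 ± 0.19 in SALK_070989 (1.66-fold; adjusted p = 0.006), while 0.55 ± 0.19 in SALK_016954 was not called (adjusted p = 0.097). All 3 differences share the same 3 Col-0 arrays. Of all probe sets tested, 10.8% in SALK_016954, 13.1% in SALK_136009 and 10.2% in SALK_070989 were higher than on those arrays without overlap.

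ATG8F followed at a smaller size. It was called in SALK_136009, at 0.52 ± 0.14 (adjusted p = 0.013 by limma), and stood at 0.35 in SALK_016954 and 0.36 in SALK_070989. It was the only other member called on full medium, which gave 0 of 9 in SALK_016954 (2 with an unadjusted p under 0.05), 2 of 9 in SALK_136009 and 1 of 9 in SALK_070989. The shares of all probe sets called were 3.28%, 8.48% and 12.5% in the same lines. The other 7 members lay between -0.49 and 0.24 in the 3 lines, the lowest being ATG8D in SALK_070989, which was at -0.07 without SALK_070989 steady replicate 3. Without that array ATG8E in SALK_070989 was at 0.79 and still called.

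These calls on full medium also turned on single arrays. ATG8E was not called in SALK_136009 without its replicate 3 (0.59), nor in SALK_070989 without its replicate 2 (0.55). ATG8F was not called in SALK_136009 without its replicate 3 (0.44) or without Col-0 steady replicate 2 (0.47). Without SALK_070989 steady replicate 1, ATG8D (-0.76) and ATG8F (0.55) were called as well, 3 of 9 in all. With the spread from only the groups compared, 0 were called in any of the lines.

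**Figure D3:**
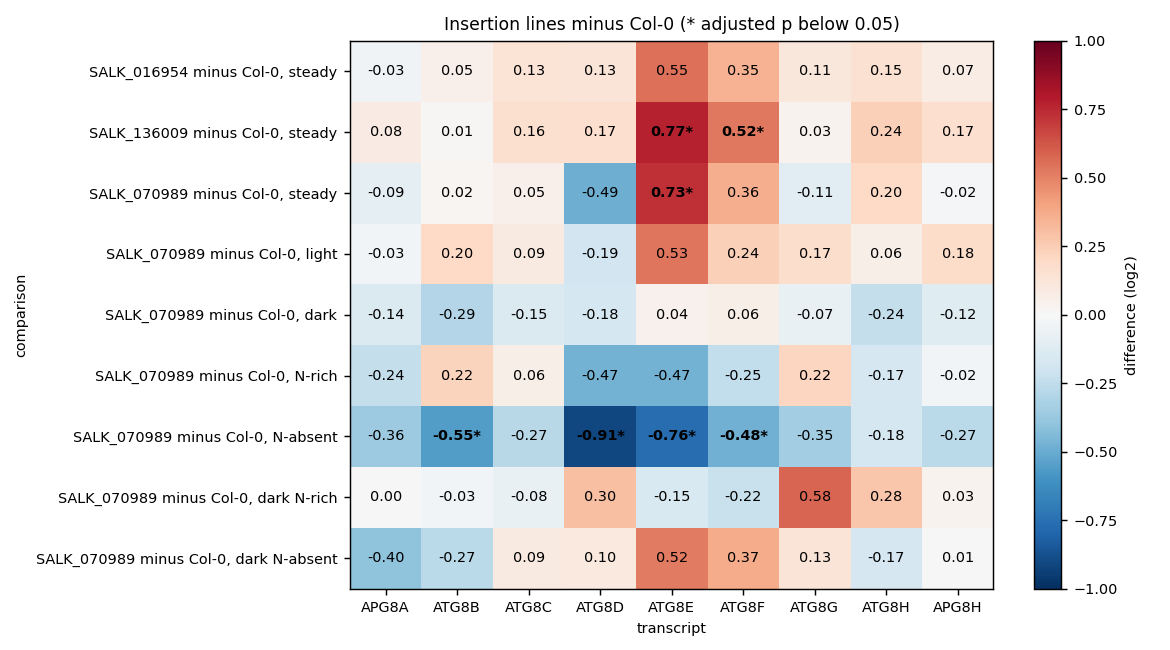
Differences (log2) of the 9 ATG8 transcripts, insertion line minus Col-0, in 9 comparisons from top to bottom; red is higher and blue lower in the insertion line, and a star marks an adjusted p below 0.05. The ATG8E column runs between 0.77 in SALK_136009 on full medium and -0.76 in SALK_070989 without nitrogen, where all 9 cells are below 0.

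Without nitrogen in the light, 4 of 9 transcripts were called lower in SALK_070989 than in Col-0, where 3.84% of all probe sets were. All 9 differences were negative, with a median of -0.36 against 0.00 over all kept probe sets. Those called were ATG8B and ATG8D of the first clade and ATG8E and ATG8F of the next. ATG8C at -0.27, ATG8G at -0.35, ATG8H at -0.18, APG8A at -0.36 and APG8H at -0.27 were not called. The N-absent arrays are also those of the nitrogen response above.

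ATG8D read 4.96, 5.14 and 5.60 in SALK_070989 N-absent, against 6.12, 5.76 and 6.54 in Col-0 N-absent, a 1.88-fold lower level (-0.91 ± 0.21, adjusted p = 0.0053 by limma) without overlap. ATG8F read 9.77, 9.94 and 10.17 in SALK_070989 N-absent, against 10.38, 10.21 and 10.73 in Col-0 N-absent (-0.48 ± 0.14, adjusted p = 0.025), again without overlap. ATG8B and ATG8E overlapped by an array: ATG8B read 6.14, 6.25 and 6.74 in SALK_070989 N-absent, against 6.63, 6.69 and 7.47 in Col-0 N-absent (-0.55 ± 0.16, adjusted p = 0.026). ATG8E read 6.82, 7.16 and 7.64 in SALK_070989 N-absent, against 8.03, 7.56 and 8.31 in Col-0 N-absent (-0.76 ± 0.19, 1.70-fold lower, adjusted p = 0.0083). Over the family the arrays of the groups did not overlap for 3 of 9 transcripts, the other being ATG8C, where 10.3% of all probe sets were lower without overlap.

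Within each of the 2 groups the 9 transcripts deviated together from array to array. Col-0 N-absent replicate 3 was the highest Col-0 array for 9 of 9 members, by 0.38 above the group mean on average, and replicate 2 the lowest for 8. SALK_070989 N-absent replicate 1 was the lowest of its group for 9 of 9 and replicate 3 the highest for 7. The median of all kept probe sets moved by 0.01 on Col-0 replicate 3, by -0.01 on Col-0 replicate 2 and by 0.00 on SALK_070989 replicate 1. GAPDH 3′ minus 5′ differences of these 6 arrays ran from 2.02 to 2.42 in SALK_070989 and from 2.30 to 2.56 in Col-0, and their part in the result was not tested.

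**Figure D4:**
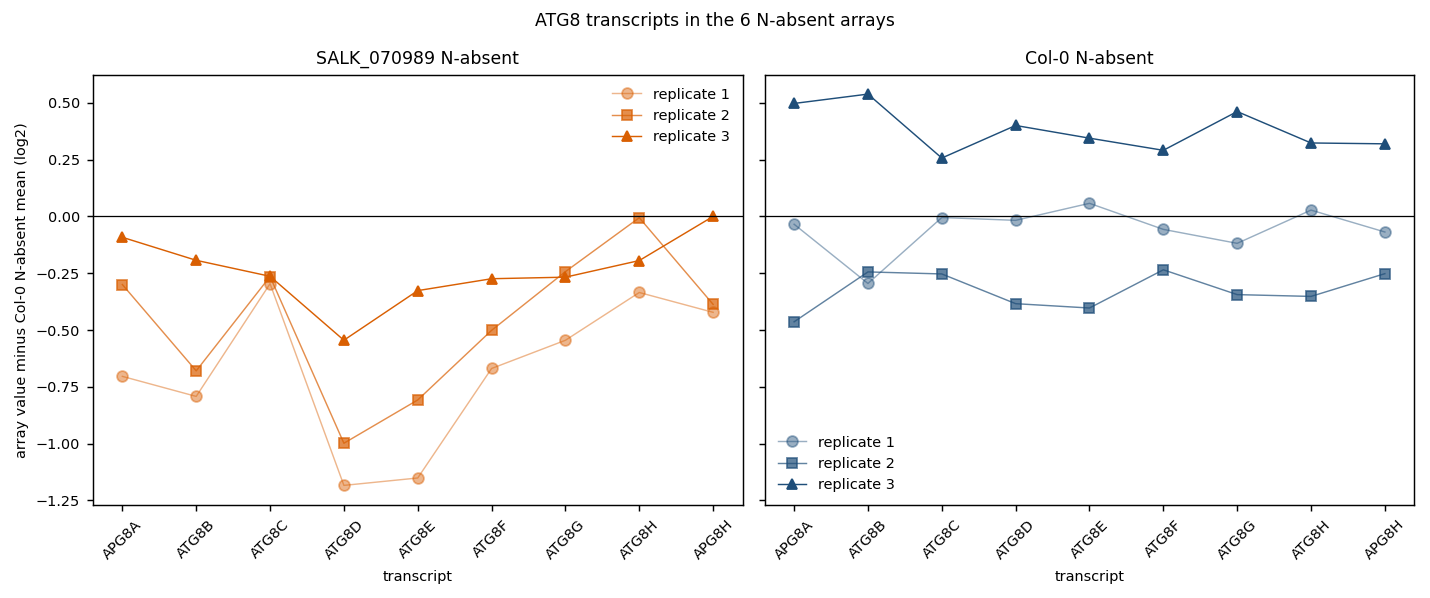
Values of the 9 ATG8 transcripts on the 3 SALK_070989 N-absent arrays (left) and the 3 Col-0 N-absent arrays (right), each as array value minus the Col-0 N-absent mean (log2). Col-0 replicate 3 lies above the other Col-0 arrays for all 9 transcripts, and no SALK_070989 value lies visibly above 0.

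The count of called members changed with the array left out, and no share over all probe sets is given for these refits. The count was 0 of 9 without Col-0 N-absent replicate 3, where ATG8D was at -0.71, ATG8E at -0.59, ATG8F at -0.34 and ATG8B at -0.29. Without SALK_070989 N-absent replicate 1 it was 1 of 9, ATG8D, with ATG8E at -0.57, ATG8B at -0.44 and ATG8F at -0.39. Without SALK_070989 N-absent replicate 2 it was 2 of 9, with ATG8B at -0.49 and ATG8F at -0.47 not called, and without Col-0 N-absent replicate 2 it was 7 of 9, with ATG8C, APG8A and APG8H added. Without replicate 3 of both genotypes, an alternative added after seeing the data, ATG8D and ATG8E were called, and with the spread from only the groups compared none was.

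The genotype difference of ATG8E thus had opposite signs on full medium and without nitrogen, and a contrast added after seeing the data tested the change. The difference in N-absent minus that in steady was -1.49 ± 0.26 for ATG8E (95% interval -2.03 to -0.96, adjusted p = 0.00018 by limma) and -0.84 ± 0.20 for ATG8F (adjusted p = 0.0037). The other 7 were between -0.58 and -0.24 and not called, so 2 of 9 members were called lower, against 5.52% of all probe sets. On N-rich medium, in the same experiment as N-absent, SALK_070989 also had the lower means, and neither was called. ATG8E averaged 6.59 there beside 7.06 in Col-0, and ATG8F 9.62 beside 9.86. Steady and N-absent groups came from different experiments, so nitrogen and experiment cannot be told apart in this contrast. Without SALK_070989 steady replicate 3 ATG8E was at -1.55, ATG8F at -0.76 and ATG8D, at -0.84, was called too. ATG8B was called without Col-0 N-absent replicate 1 (-0.73) or 2 (-0.70) or SALK_070989 N-absent replicate 3 (-0.76).

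In the other 5 conditions no member was called between SALK_070989 and Col-0 by limma. The shares of all probe sets called were 2.6% in the dark, 5.61% in the light, 2.75% on N-rich medium, 5.19% in dark N-rich and 20.1% in dark N-absent, and 0, 1, 2, 1 and 3 members had an unadjusted p under 0.05 in that order. ATG8E was at 0.04 in the dark, 0.53 in the light (adjusted p = 0.091), -0.47 on N-rich medium (adjusted p = 0.16), -0.15 in dark N-rich and 0.52 in dark N-absent (adjusted p = 0.076). Without Col-0 dark N-absent replicate 1 it was at 0.66 in dark N-absent and not called. RCA was called higher in SALK_070989 than in Col-0 in dark N-absent, by 0.49, and its part in these values was not tested. For ATG8E the SALK_070989 arrays lay wholly above those of Col-0 in the light and in dark N-absent, and wholly below them on N-rich medium. Of all probe sets tested, 13.3% in the light and 23.8% in dark N-absent were higher without overlap, and 9.87% on N-rich medium were lower. ATG8F was called in dark N-absent without SALK_070989 replicate 2 (0.51). Averaged over 7 conditions, ATG8D at -0.26 ± 0.08 (adjusted p = 0.018 by limma) and APG8A at -0.18 ± 0.06 (adjusted p = 0.033) were called lower, 2 of 9 members, where 11.2% of all probe sets were. ATG8D was at -0.20 without SALK_070989 steady replicate 3 and -0.28 without Col-0 dark N-absent replicate 1, called both times. APG8A lost that call when any 1 of 9 arrays was left out, at -0.18 to -0.15: steady replicate 3, N-absent replicate 1, dark replicate 1 and dark N-rich replicate 1 of SALK_070989, and N-rich replicate 1, N-absent replicate 3, light replicate 2, dark N-absent replicate 1 and dark N-rich replicate 2 of Col-0.

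The light groups and the steady groups had the same genotypes and a normal light cycle but came from different experiments. No member was called between them by limma, light minus steady, in SALK_070989 (1 with an unadjusted p under 0.05) or in Col-0 (2), where 3.06% and 4.49% of all probe sets were called. ATG8E nevertheless read 8.22, 8.18 and 8.24 in Col-0 light, against 7.87, 7.53 and 7.68 in Col-0 steady (0.52 ± 0.19, adjusted p = 0.11 by limma), without overlap, where 13% of all probe sets tested were higher without overlap. That gap lies beside a difference of 0.55 between SALK_016954 and Col-0 on full medium. In SALK_070989 ATG8E was at 0.32 (adjusted p = 0.41), and at 0.26 without steady replicate 3.

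Members' profiles over the 16 group means were compared in pairs. Over the 36 pairs Pearson's r ran from 0.20 (ATG8F with ATG8G) to 0.98 (APG8A with APG8H), with a median of 0.62. ATG8E and ATG8F had r = 0.93, ATG8C and ATG8F 0.91, and ATG8B and ATG8D 0.91. The points share experiments and the authors' processing. Deviations of the 46 arrays from their group means, which leave the conditions out, correlated from -0.05 to 0.72 with a median of 0.34, highest for ATG8E with ATG8F.

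**Figure D5:**
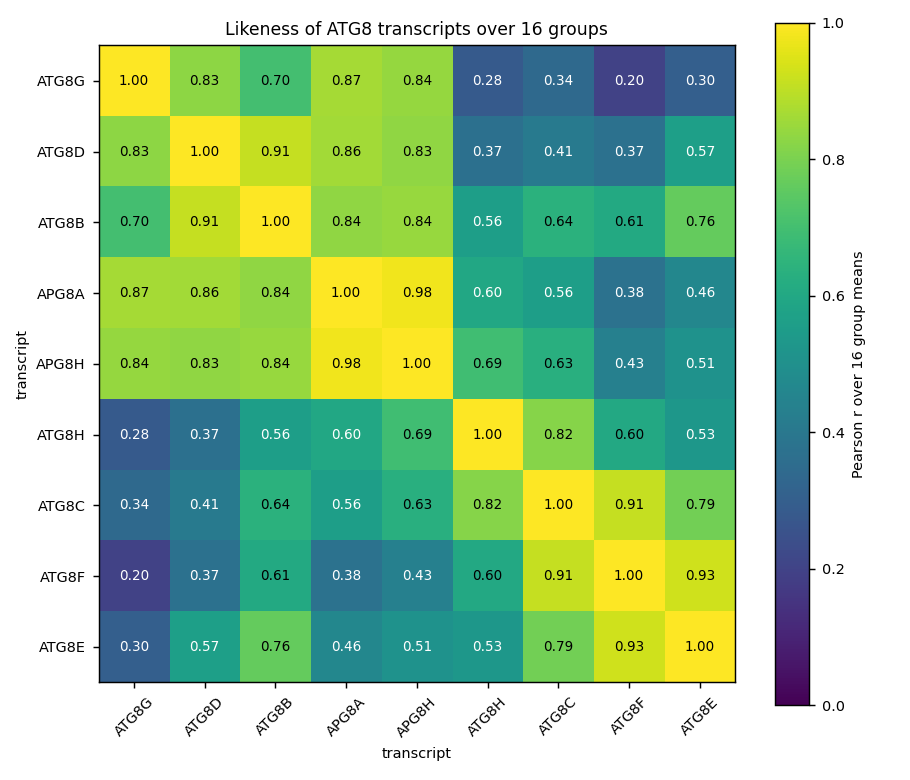
Pearson correlation of each pair of ATG8 transcripts over the 16 group means, as colour and number, with the order of the transcripts set by hand. ATG8G, ATG8D, ATG8B, APG8A and APG8H form a block with values of 0.70 and above, and ATG8H, ATG8C, ATG8F and ATG8E a looser block with values of 0.53 and above. Pairs across the blocks run from 0.20 (ATG8G with ATG8F) to 0.76 (ATG8E with ATG8B), so the looser block is not set apart.

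Among 7667 other kept probe sets with 1 gene name, the profiles most like the members' were close to theirs. The nearest were AT5G39520 to ATG8B (r = 0.99 over 16 groups), AT4G13530 to ATG8C (0.98), AT5G65750 to ATG8D (0.98), DER2.1 to ATG8E (0.98) and AT3G53950 to ATG8F (0.98). For ATG8H the nearest was AT2G06470 (0.94), for ATG8G AT3G03610 (0.91), for APG8H AT5G27280 (0.98) and for APG8A the member APG8H (0.98). APG8A and APG8H shared AT3G02770, AT5G11600 and AT5G27280 among their 5 nearest profiles, and AT3G02770 was among the 5 nearest of ATG8G as well (0.89). Named genes further down the lists of 5 were DI19 (0.96) for ATG8D, TRM26 (0.96) and BPC1 (0.96) for ATG8E, TRM19 (0.98) and RTE1 (0.98) for ATG8F and ETFBETA (0.92) for ATG8H.

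The rest of the autophagy pathway was measured thinly. Of 47 genes in 5 lists, 12 had a named probe set and 10 passed the filter: 5 of 8 in the initiation kinase complex, 3 of 9 in the conjugation of ATG8 and ATG12, 1 of 9 among cargo receptors and partners, 1 of 6 among upstream kinases and 0 of 15 for lipid kinase and membrane supply. In the dark 7 of the 10 rose and 1 fell in each genotype, where 37.5% of all probe sets were called higher and 36.7% lower in SALK_070989, and 38.1% higher and 38.2% lower in Col-0. ATG3, the enzyme that hands ATG8 to its lipid, rose by 0.23 in SALK_070989 and 0.39 in Col-0. AT5G50230 of the conjugation list rose by 1.42 in SALK_070989 and 1.95 in Col-0, and AT5G66930 (synonym ATG101) of the initiation list by 0.97 and 1.06. RAPTOR1, a partner of the TOR kinase, rose by 0.86 and 1.00, while AT3G61960 of the initiation list fell by 0.21 and 0.25. The median of the 10 was 0.62 in SALK_070989 and 0.54 in Col-0, against 0.01 and 0.00 over all kept probe sets.

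With nitrogen in the light 3 of the 10 fell in SALK_070989 and 6 in Col-0, where 9.68% and 14.2% of all probe sets were called lower. AT3G61960 was at -0.59 in SALK_070989 and -0.65 in Col-0, RAPTOR1 at -0.36 and -0.78, and ATG3 at -0.26 and -0.35, all called. The SALK_070989 count was 1 without N-rich replicate 3, N-absent replicate 2 or N-absent replicate 3. Without nitrogen, ATG3 (-0.31, adjusted p = 0.025 by limma) and RAPTOR1 (-0.41, adjusted p = 0.018) were lower in SALK_070989 than in Col-0, 2 of 10, where 3.84% of all probe sets were called lower. That count was 0 without Col-0 N-absent replicate 1 or 3, and 1 without SALK_070989 N-absent replicate 1 or 2. The mean of 7 conditions gave 3 of the 10, all lower, where 11.2% of all probe sets were called lower. The other comparisons of a line with Col-0 within a condition gave 0 or 1 of 10, where 2.6% to 20.1% of all probe sets were called. The count was 1 for SALK_070989 on full medium and in dark N-absent, where 12.5% and 20.1% of all probe sets were called. The nitrogen contrast in the dark gave 1 of 10 in SALK_070989 and 2 of 10 in Col-0, where 28.6% and 20.1% of all probe sets were called, so these counts are at or below the share over all probe sets.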

How the data were processed

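Shoot RNA was hybridised to Affymetrix 3′ arrays. The authors deposited log2 values for 22810 probe sets on 46 arrays, and the submitters' processing notes name GCRMA. Its version, and whether all arrays went through it together, is not given. The log2 scale was read from the range of the values. GCRMA shrinks dim probe sets to a common floor, which 26.4% of the values came within 0.01 of, so differences of dim transcripts are understated.

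Gene names came from the platform annotation, which lists 14016 probe sets, 13513 with 1 gene name and 503 with several, and leaves 8794 unnamed here. Of the single names 13436 matched a locus of RefSeq's TAIR10.1 table. After 64 control probe sets were removed, 14288 probe sets with a highest group mean above 4 were kept (10884 at 6). No arrays were duplicates.

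A model of 16 group means was fitted in R 4.3.3 with limma 3.58.1 (30 residual and 4.97 prior degrees of freedom), with eBayes moderation and Benjamini-Hochberg adjustment across kept probe sets in each of 23 contrasts and in 3 added after seeing the data, threshold 0.05. Single values had an exact two-sided permutation test over arrays. The model was tested on simulated data. Alternatives were no filter, a filter at 6, quantile normalization on top, robust eBayes with a trend, a replicate block, fits restricted to the compared groups, and omission of each array in turn. Named genes were all members, per pathway list up to 4 called genes with the smallest adjusted p, the 5 nearest profiles per member and WRKY1. The members, lists and tests were chosen with earlier results of these data known. Replicate numbers paired the arrays, with every correlation of deviations above 0.1, in SALK_070989 minus Col-0 without nitrogen (0.14 to 0.49) and in the Col-0 nitrogen contrast in the light (0.13 to 0.15), a pairing that comes from the data and not from the labels. None of 6 senescing leaf markers had a named probe set.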

Additional observations from a re-analysis of the deposited data

Results flagged for a closer look

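ATG8E and ATG8F stand out because their responses differed between conditions by the test of that difference. In SALK_070989 the nitrogen response (N-rich minus N-absent) of ATG8E was higher in the dark than in the light by 0.93 ± 0.26 (SE; adjusted p = 0.019 by limma), and in Col-0 it was higher by 1.89 ± 0.29 for ATG8E and by 0.81 ± 0.22 for ATG8F (adjusted p = 2.5e-05 and 0.012). The difference between SALK_070989 and Col-0 was lower without nitrogen than on full medium by the contrast added after seeing the data, at -1.49 ± 0.26 for ATG8E and -0.84 ± 0.20 for ATG8F (adjusted p = 0.00018 and 0.0037 by limma). Both pairs of conditions came from different experiments, which cannot be told apart from the conditions. Deviations of ATG8E and ATG8F from their group means had r = 0.72 over the 46 arrays.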

How the results depend on the processing

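Of 67 calls of members over all contrasts, 67 were kept with a filter at 6, quantile normalization on top, robust eBayes with a trend, and the replicate block, 62 without a filter and 42 with the spread from only the groups compared. None reversed, and of 479 refits without 1 array of a comparison 415 kept the call. The block changed no call of a member. Counts of calls in the refits below are given without the share over all probe sets. With only the groups compared, 0 members were called in SALK_136009 and SALK_070989 on full medium, in SALK_070989 minus Col-0 without nitrogen, in the nitrogen contrasts of SALK_070989 in the light and Col-0 in the dark and in the change of the SALK_070989 nitrogen response, 2 in the Col-0 nitrogen contrast in the light, and 1 in the change of the Col-0 nitrogen response and in the genotype difference of N-absent minus steady. Without a filter 1 was called in the mean of 7 conditions and 2 in the SALK_070989 nitrogen contrast in the dark. Without 1 array, counts ran from 0 to 2 (SALK_136009, full medium), 0 to 3 (SALK_070989, full medium), 0 to 7 (N-absent), 0 to 1 (dark N-absent), 1 to 2 (mean of 7), 2 to 3 (Col-0 nitrogen, dark), 0 to 4 (SALK_070989 nitrogen, light), 1 to 3 (SALK_070989 nitrogen, dark), 0 to 1 (nitrogen by genotype, dark), 1 to 2 (change of nitrogen response, Col-0) and 0 to 1 (SALK_070989). Without replicate 3 of both N-absent groups the counts were 2 (genotype, N-absent), 1 (SALK_070989 nitrogen: ATG8B, higher at 0.39, while the 3 lower calls were lost) and 0 (change of its response).

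Counts of pathway list genes moved likewise. With only the groups compared they were 0 on full medium, N-absent and dark N-absent (SALK_070989 minus Col-0), both nitrogen contrasts in the dark, the change of the Col-0 nitrogen response and the genotype difference of N-absent minus steady, 1 for SALK_070989 and 2 for Col-0 in the nitrogen contrast in the light, and 1 for darkness by genotype. The last was 1 also without a filter or at 6. The Col-0 nitrogen contrast in the dark gave 1, not 2, without a filter, at 6, with robust settings and with the replicate block, crossed too, and the change of the Col-0 response 1, not 3, with the replicate block. The change of the SALK_070989 response gave 1, not 0, without a filter. Without 1 array the ranges were 0 to 1 (full medium), 0 to 2 (N-absent), 0 to 1 (dark N-absent and dark N-rich), 1 to 4 (mean of 7), 1 to 2 (Col-0 nitrogen, dark), 1 to 3 (SALK_070989 nitrogen and change in Col-0), 0 to 1 (change in SALK_070989) and 1 to 3 (N-absent minus steady). With crossed numbers the Col-0 dark nitrogen contrast (correlation -0.18) gave 4 member calls, as uncrossed. The causes were not tested; only-compared fits have fewer samples. The number of arrays, 2 or 3 a group, limits the precision.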

Other observations

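ATG8H had a positive difference between N-rich and N-absent shoots in the light in both genotypes, called in neither. It averaged 5.78 ± 0.24 in SALK_070989 N-rich and 5.62 ± 0.17 in SALK_070989 N-absent, and 5.95 ± 0.32 in Col-0 N-rich and 5.80 ± 0.34 in Col-0 N-absent (SD, n = 3 each). On full medium in the steady experiment its 4 group means were 5.02 to 5.26, and in the light groups 5.29 in SALK_070989 and 5.23 in Col-0. No array of the nitrogen experiment was below 5.44, while the lit arrays of the steady and light experiments ran up to 5.50. In the combined experiment, also dark, it averaged 5.46 in SALK_070989 dark N-rich and 5.04 in SALK_070989 dark N-absent, against 5.18 and 5.21 in the same Col-0 groups. The difference between those SALK_070989 dark groups was called, and light minus steady was not called in either genotype. The levels of the nitrogen experiment were not tested against those of the other experiments.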
